A study of Rattus norvegicus with 6 samples.

Results

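The genes described here are the rat potassium channel genes, taken as every probe set of the array whose only annotated gene symbol begins with Kcn. The rule gave 126 of 31042 probe sets and 75 genes, of which 44 had a single probe set and Kcnc2 had the most, 6. Expression was measured on Affymetrix rat arrays in cultured rat aortic smooth muscle cells between passages 3 and 5, with 3 static control cultures and 3 cultures under laminar fluid shear stress, paired 1 to 3. Both groups had been grown in medium with 10% fetal calf serum and ascorbic acid and then kept for 24 h in medium with 0.1% bovine serum albumin instead of serum. Sheared monolayers then spent 24 h at 14 dyn per square centimetre in a parallel-plate flow chamber. The cells were confluent and lay directly under the flow with no endothelium over them, and the labels do not say what the members of a pair had in common. Strain, sex and age of the animals are not given in the sources used here, and nothing says that the cultures came from separate animals, so a p-value covers only how far these particular cultures varied, in part perhaps for technical reasons.

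Potassium channels let potassium leave the cell and so hold the membrane of a smooth muscle cell negative, which keeps voltage-gated calcium channels closed and the muscle relaxed. Voltage-gated channels open on depolarisation, and calcium-activated channels open when calcium rises. Inward rectifiers pass current more easily into the cell than out of it, and two-pore (K2P) channels carry a background current. Auxiliary subunits do not form a pore themselves and change the gating or the surface level of the channels they join. In arterial muscle the large-conductance channel of Kcnma1 and Kcnmb1, the Kv1 and Kv7 channels, the ATP-sensitive channel of Kcnj8 and Abcc9 and the inward rectifier of Kcnj2 are best known, whereas Kcnn4 is known from dividing smooth muscle cells in culture.

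Most potassium channel transcripts gave a low signal in both conditions, and the differences with the most signal behind them were in 5 genes. Kcnq5 and Kcnn4 rose under shear, while Kcnk2, Kcne4 and Kcnh3 fell. These 5 genes were those whose brightest probe set reached a mean MAS5 signal of 50 or more in static or in sheared cells; the other 70 genes stayed below 50 in both. A signal of 50 or more was reached by 3.97% of the Kcn probe sets and by 40.7% of all probe sets, a description only, since probe sets differ in how well they bind. Kcnq5 and Kcnn4 were above the limit in both groups. Kcnk2, Kcne4 and Kcnh3 were above it in static cells only, so that the limit itself favoured a fall in them. For comparison, 69.4% of all genes with a mean of 50 or more changed (35.0% risen and 34.4% fallen), and 69.8% of such probe sets (34.9% and 34.8%). The genes nearest above the limit were Kcne4, at 58.5, and Kcnh3, at 65.8, and the nearest below it were Kcnk6, at 47.1, and Kcnd3, at 42.6.

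**Figure D1:**
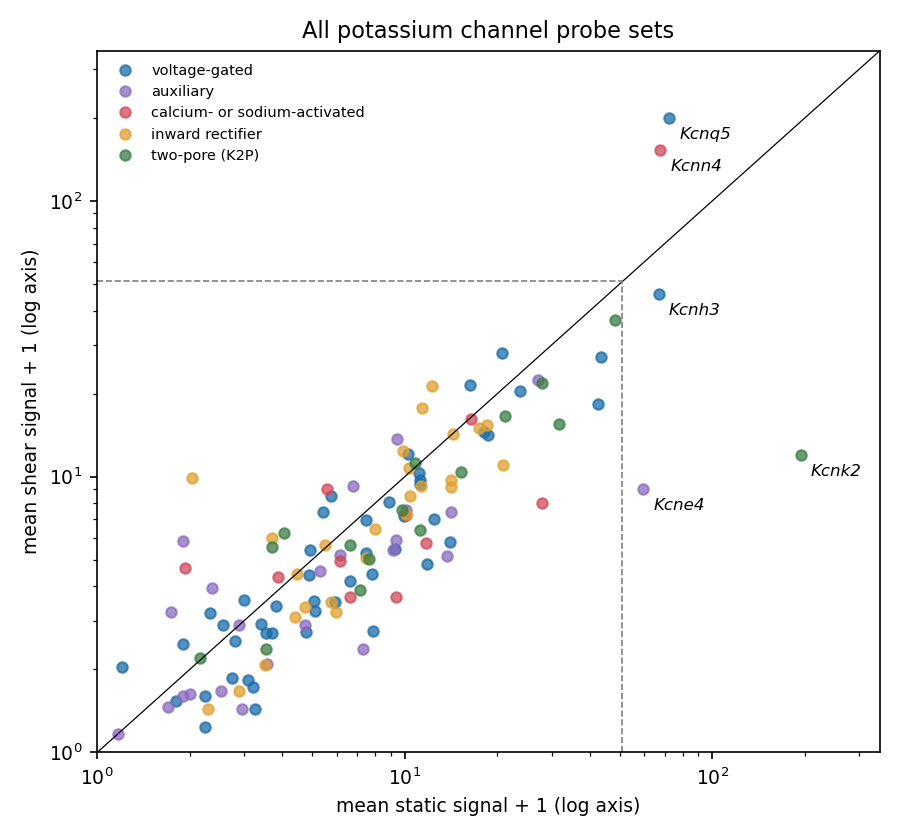
Mean signal under shear against mean static signal for all 126 potassium channel probe sets, both with 1 added and on log axes, coloured by group. The solid line marks equal signal and the dashed lines the limit of 50 in either group; most points crowd below 50 on both axes, with Kcnq5 and Kcnn4 above the line of equality and Kcnh3, Kcne4 and Kcnk2 below it.

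The sequence before the start of transcription is shown for the gene that rose most, Kcnq5, and for both genes that fell most, Kcnk2 and Kcne4. Each run is the 250 bases before the annotated start, read 5′ to 3′ on the strand of the gene, from RefSeq on build GRCr8; Kcnk2 has a pair of annotated starts. Capitals mark matches, on either strand, to 4 motifs: GAGACC, known as a shear stress response element of endothelial genes; TGANTCA, bound by AP-1; TGACNNNGC, the core of the antioxidant response element; and the CArG box, bound by serum response factor. No other motif was searched; a TGANTCA match can lie within a TGACNNNGC match, which did not occur in these windows.
Kcnq5, chr9:31891282-31891531, minus strand: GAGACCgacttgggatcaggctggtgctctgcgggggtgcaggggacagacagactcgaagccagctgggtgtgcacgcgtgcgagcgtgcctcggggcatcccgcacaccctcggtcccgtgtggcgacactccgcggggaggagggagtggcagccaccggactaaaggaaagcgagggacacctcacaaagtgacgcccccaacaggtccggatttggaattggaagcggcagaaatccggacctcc
Kcne4, chr9:87695798-87696047, plus strand: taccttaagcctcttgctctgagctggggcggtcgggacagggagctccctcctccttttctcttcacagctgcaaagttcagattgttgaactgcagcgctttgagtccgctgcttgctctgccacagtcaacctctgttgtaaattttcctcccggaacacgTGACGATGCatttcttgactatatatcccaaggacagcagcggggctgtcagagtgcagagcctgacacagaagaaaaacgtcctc
Kcnk2, chr13:103438643-103438892, minus strand: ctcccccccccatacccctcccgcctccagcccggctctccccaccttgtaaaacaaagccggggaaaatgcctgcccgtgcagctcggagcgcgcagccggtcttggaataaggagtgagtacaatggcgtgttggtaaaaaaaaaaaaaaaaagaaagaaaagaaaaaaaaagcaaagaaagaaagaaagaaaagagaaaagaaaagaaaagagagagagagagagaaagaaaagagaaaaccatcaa
Kcnk2, chr13:103494687-103494936, minus strand: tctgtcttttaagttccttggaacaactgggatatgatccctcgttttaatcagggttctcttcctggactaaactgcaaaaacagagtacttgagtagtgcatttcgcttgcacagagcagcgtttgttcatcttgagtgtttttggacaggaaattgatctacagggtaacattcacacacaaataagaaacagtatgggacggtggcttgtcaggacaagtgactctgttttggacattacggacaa
GAGACC was found at the far end of the Kcnq5 window, 250 to 245 bases before the start, and it was present in 13.7% of all 33469 windows of that length. The Kcne4 window held TGACGATGC, a match to TGACNNNGC, 86 to 78 bases before the start, against 10.1% of all windows with such a match. Neither Kcnk2 window held any of the 4. Windows were at hand for 10 of the 14 genes with a changed probe set, 12 windows in all, and 1 of them held GAGACC, 1 TGACNNNGC, 0 TGANTCA and 0 a CArG box. Over all windows TGANTCA was present in 6.34% and the CArG box in 1.5%. A match describes letters and not a bound site.

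Across the family 52 of the 126 probe sets had a signal high enough to be tested, and 74 lay among the 30% of all probe sets with the lowest mean, which were left out. Of the 52, 3 rose, 11 fell and 38 did not pass, 26.9% changed, against 52.8% of all 21729 probe sets tested (24.3% risen and 28.5% fallen). A change was called at an adjusted p below 0.05 from limma with the pair as a block, and differences are shear minus static of log2 signal after 16 is added, a scale on which changes of dim probe sets come out too small. Among the 47 tested members below 50 in both groups, 1 rose and 8 fell, 19.1% in all, against 29.3% of all probe sets in that range of signal (9.60% risen and 19.6% fallen). By gene, with the brightest probe set standing for each, 3 of 38 rose and 10 fell, against 27.9% and 30.2% of all genes. Static and sheared arrays did not overlap for 20 of the 52, 3 higher and 17 lower under shear, against a background of 60.0% of all tested probe sets (27.1% higher and 32.9% lower). Among those below 50 in both groups it was 16 of 47, 2 higher and 14 lower, against 39.8% of all such probe sets (13.0% higher and 26.8% lower). The median difference of the 52 was -0.17, beside -0.067 for all tested probe sets. For the 47 below 50 in both groups it was -0.16, beside -0.10 for all tested probe sets in that range of signal. The share of fallen members depended on the scaling: after quantile normalization or median centring 5 rose and 6 fell. Family medians were then -0.05 and -0.02, beside 0.021 and 0.082 for all probe sets tested. The family median was thus below that of all probe sets under each of the 3 scalings. Probe sets of like signal were compared only under the scaling of the deposited values.

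**Figure D2:**
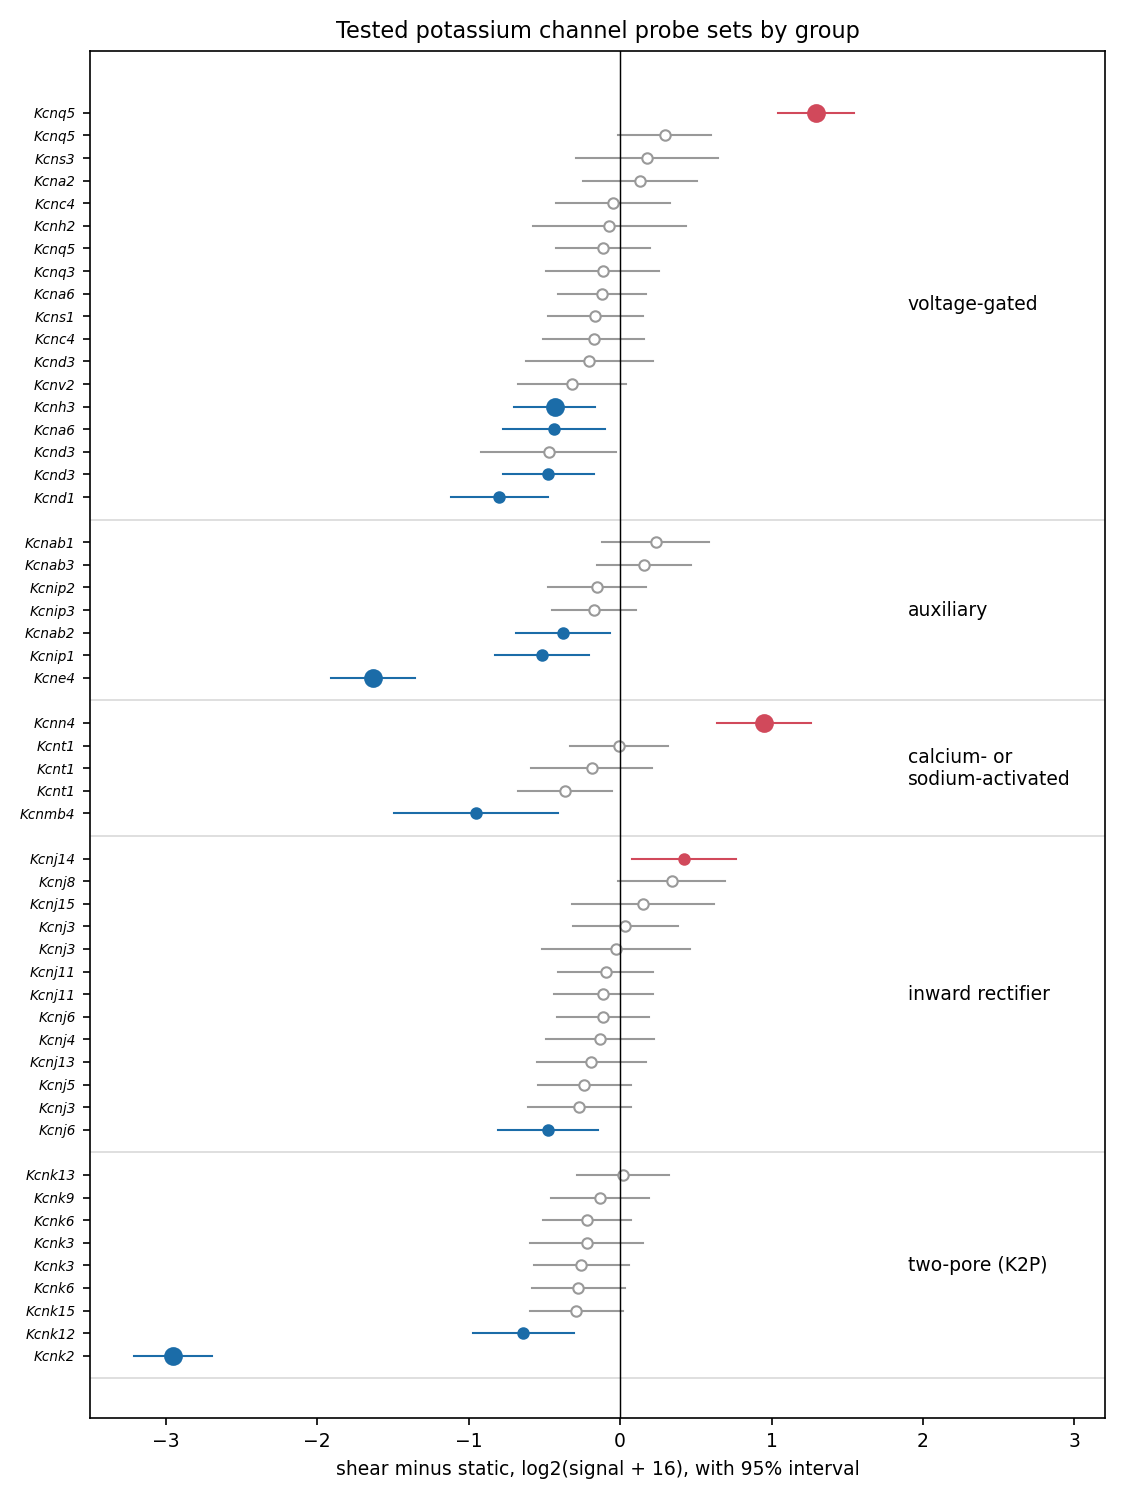
Difference between sheared and static cells on the log2(signal + 16) scale for each of the 52 tested potassium channel probe sets, with its 95% interval from limma, grouped by channel class and labelled by gene. Filled red points rose and filled blue points fell at an adjusted p below 0.05, and open points did not pass. Large points are probe sets with a mean of 50 or more in either group. Kcnk2 at -2.95 and Kcne4 at -1.63 lie farthest to the left and Kcnq5 at 1.29 farthest to the right.

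Voltage-gated channels were represented by 31 genes and 49 probe sets. Of 18 probe sets tested, 1 rose, 4 fell and 13 did not pass, 27.8% changed. The share was 52.8% among all probe sets tested and 29.3% among those below 50 in both groups. The median of the 18 was -0.14, which was -0.03 after quantile normalization and 0.0072 after median centring. Kcnq5, a Kv7 subunit of vascular smooth muscle that is active near the resting potential, had signals of 80.4, 65.5 and 67.6 in static arrays 1 to 3 and of 235.8, 183.9 and 175.5 in sheared arrays 1 to 3. All sheared arrays were far above all static ones, and the pairs rose by 1.39, 1.29 and 1.20. The mean went from 71.2 ± 8.06 to 198 ± 32.7 (SD, n = 3), a ratio of 2.79, and the fitted difference was 1.29 (95% interval 1.04 to 1.54, adjusted p = 4.8e-05). The rise was seen on the brightest Kcnq5 probe set and was not shared in full by the others. A dimmer one read 11.8, 29.7 and 17.8 in static and 22.5, 32.4 and 26.5 in sheared arrays, with overlap between the groups and a difference of 0.29 (adjusted p = 0.099), which passed after quantile normalization or median centring (0.44 in both). The dimmest, at 10.2 ± 2.17 and 8.37 ± 3.58, had a difference of -0.11 (adjusted p = 0.51), which turned to 0.036 with median centring.

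The other Kv7 genes on the array, Kcnq1 and Kcnq3, were dim. Kcnq3 had a brighter probe set at 10.2 ± 2.05 in static and 8.73 ± 6.36 in sheared cells (adjusted p = 0.57), and Kcnq1, at 4.10 ± 1.25 and 2.27 ± 2.14, was not tested.

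Kcnh3, a Kv12 subunit known mainly from brain, read 66.7, 66.3 and 64.5 in static arrays and 48.7, 46.5 and 39.1 in sheared arrays. The static arrays were close together and all above the sheared ones, and the mean fell from 65.8 ± 1.17 to 44.8 ± 5.03 (SD, n = 3), a difference of -0.43 (95% interval -0.70 to -0.17, adjusted p = 0.014). The call was lost after quantile normalization (-0.29, adjusted p = 0.061) or median centring (-0.28, adjusted p = 0.067), and without pair 2 (-0.45, adjusted p = 0.066) or pair 3 (-0.38, adjusted p = 0.12).

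Of the Kv4 genes, which form fast-inactivating A-type channels, Kcnd1 fell, and Kcnd3 fell on 1 of 3 probe sets, both from low signals. Kcnd1 read 44.1, 43.5 and 36.6 in static and 24.7, 12.8 and 14.5 in sheared arrays, with no overlap. Its difference was -0.80 (95% interval -1.12 to -0.48, adjusted p = 0.0018). Kcnd3 read 39.4, 47.4 and 40.9 in static and 30.4, 25.1 and 23.1 in sheared arrays on its brightest probe set, also with no overlap, and fell by 0.47 (adjusted p = 0.016), but not under the other scalings (adjusted p = 0.061 and 0.053), without the filter, or with pair 2 or pair 3 left out. Its other probe sets did not pass, with differences of -0.20 and -0.47 (adjusted p = 0.38 and 0.071). Kcnd2, another A-type subunit, was below the limit for testing on both probe sets, which differed in direction (4.43 ± 1.24 to 6.47 ± 1.72 and 6.87 ± 1.01 to 1.77 ± 1.45).

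Among Kv1 genes, Kcna6 split by probe set. A dim one fell by 0.44 (10.8 ± 2.32 to 3.83 ± 1.62, adjusted p = 0.036), but not under the other scalings or without pair 3, whereas the brightest, at 22.7 ± 4.84 and 19.5 ± 3.36, did not pass (-0.12, adjusted p = 0.45). Kcna5, a delayed rectifier of arterial muscle, had signals of 1.1 to 10.2 in static and 1.5 to 5.6 in sheared arrays and was not tested. Signals this low could not be told from background, since no detection calls were at hand.

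Auxiliary subunits of voltage-gated channels comprised 11 genes and 24 probe sets, of which 7 probe sets were tested, 0 rose, 3 fell and 4 did not pass. Changed were thus 42.9%, against 52.8% of all probe sets tested and 29.3% of those below 50 in both groups. In limma 0 of the 7 were higher at an unadjusted p under 0.05, against 26.6% of all probe sets tested. All of the 7 but Kcne4 lay below 50 in both groups, where 9.60% of probe sets rose at an adjusted p below 0.05. The 7 are too few to read this as a property of the group. The median was -0.17, or -0.05 and -0.03 under the other scalings. Kcne4, a single-span subunit known to join Kv7 and Kv1 channels, read 66.3, 52.0 and 57.1 in static arrays and 9.1, 6.8 and 8.1 in sheared arrays. It went from a clear signal to one near background in every pair, with differences of -1.71, -1.58 and -1.60. The mean was 58.5 ± 7.25 in static and 8.0 ± 1.15 in sheared cells (SD, n = 3), a ratio of 7.31, and the fitted fall was 1.63 (95% interval -1.91 to -1.35, adjusted p = 2.6e-05). The ratio rests on a sheared signal near the floor and the fitted value on the pseudocount, with -2.73 at a pseudocount of 1 and -0.76 at 64. Kcne1, Kcne2 and Kcne3, of the same family, lay below the limit for testing.

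Kcnip1, a calcium-binding partner of Kv4 channels, fell from 12.7 ± 2.97 to 4.13 ± 3.35 (SD, n = 3) on its brightest probe set (-0.52, adjusted p = 0.013). Kcnab2, a cytoplasmic beta subunit of Kv1 channels, fell from 13.2 ± 2.49 to 6.47 ± 2.05 (-0.38, adjusted p = 0.045). The 3 arrays of each group did not overlap for either gene. The call on Kcnip1 was lost without pair 2 (-0.49, adjusted p = 0.053), and that on Kcnab2 after quantile normalization, after median centring, at a pseudocount of 1, and with pair 2 or pair 3 left out.

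**Figure D3:**
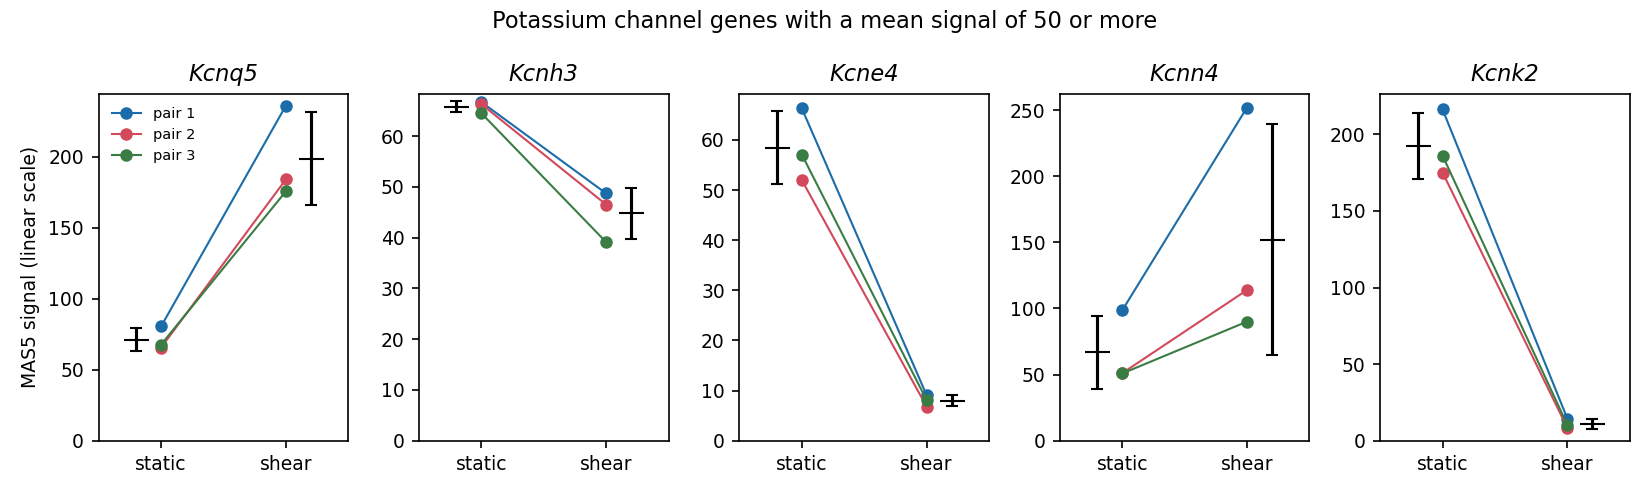
MAS5 signal on a linear scale in each static and sheared array for the 5 potassium channel genes with a mean of 50 or more in either group, on the brightest probe set of each; coloured lines join the arrays of a pair, and black bars give the mean and SD of 3 arrays. Kcnq5 and Kcnn4 rise in every pair and Kcnh3, Kcne4 and Kcnk2 fall in every pair, and for Kcnn4 pair 1 lies above the other pairs in both conditions.

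Calcium-activated channels, grouped with the sodium-activated Kcnt1, comprised 7 genes and 11 probe sets. Of 5 probe sets tested, 1 rose, 1 fell and 3 did not pass. Changed were thus 40%, against 52.8% of all probe sets tested and 29.3% of those below 50 in both groups. Kcnn4, the intermediate-conductance channel opened by calcium through calmodulin, read 98.5, 51 and 50.8 in static arrays and 251.9, 113.9 and 90.0 in sheared arrays. Static array 1 was above sheared array 3, so the groups overlapped, while within each pair the sheared array was the higher, by 1.23, 0.96 and 0.67. The mean went from 66.8 ± 27.5 to 152 ± 87.4 (SD, n = 3), a ratio of 2.28, and the fitted difference was 0.95 (95% interval 0.64 to 1.26, adjusted p = 0.00067). Without pair 1, whose arrays were high in both conditions, it was 0.81 and still passed. The small p rested on the pair as a fixed block. In limma without the replicate block the adjusted p was 0.034, and with a random block it was 0.027.

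Kcnmb4, a beta subunit of the large-conductance channel known mainly from brain, read 22.2, 33.9 and 24.7 in static arrays and 16.7, 1.1 and 3.2 in sheared arrays. The groups did not overlap, and sheared array 1 lay nearer the static arrays than the others did. The fitted fall was 0.95 (95% interval -1.49 to -0.41, adjusted p = 0.010), while pair 1 alone gave -0.22 and the others -1.55 and -1.08. Kcnt1 did not pass on any of 3 probe sets, at -0.01, -0.19 and -0.36 (adjusted p = 0.97, 0.39 and 0.053), the last of which passed without the replicate block (adjusted p = 0.027).

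The pore subunit of the large-conductance channel, Kcnma1, and its smooth muscle beta subunit, Kcnmb1, are defining channels of contractile arterial muscle. On its brightest probe set Kcnma1 read 5.3, 4.9 and 3.5 in static and 4.5, 9.5 and 10.0 in sheared arrays, and its other 2 probe sets had group means of 0.93 to 3.67. Kcnmb1 read 5.1, 6.2 and 4.2 in static and 8.9, 1.3 and 1.6 in sheared arrays. All 4 of these probe sets lay below the limit for testing, with overlap between the groups on the brightest Kcnma1 and on the Kcnmb1 probe set, so no change could be measured.

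Inward rectifiers comprised 15 genes and 26 probe sets, and 0 reached a mean of 50; the highest group mean was 20.3. Of 13 probe sets tested, 1 rose, 1 fell and 11 did not pass, 15.4% changed. Among all tested probe sets below 50 in both groups the share was 29.3% (9.60% risen and 19.6% fallen). The median difference of the 13 inward rectifier probe sets, -0.11, became 0.0030 with quantile normalization and 0.04 with median centring. Kcnj14 read 16.7, 8.0 and 9.2 in static and 21.8, 23.6 and 15.6 in sheared arrays, with overlap, and rose by 0.42 (adjusted p = 0.044), a call lost at a pseudocount of 1, without the filter, and without pair 2 (0.27, adjusted p = 0.27) or pair 3. Kcnj6, a G protein-gated channel, read 19.2, 27.5 and 13.0 in static and 14.2, 12.9 and 2.9 in sheared arrays, again with overlap. It fell by 0.48 in the paired fit (adjusted p = 0.023), a call lost when the replicate block was dropped (adjusted p = 0.084) or made random, under either other scaling, and with pair 2 or pair 3 left out. A second tested Kcnj6 probe set did not pass (-0.12, adjusted p = 0.49).

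Kcnj8, the pore subunit of the vascular ATP-sensitive channel, read 11.8, 15.1 and 4.1 in static and 16.4, 18.1 and 15.9 in sheared arrays. All sheared arrays were above the static ones, yet the difference of 0.34 did not pass (adjusted p = 0.096), while it passed after quantile normalization (0.47, adjusted p = 0.031) and median centring (0.49, adjusted p = 0.027). Its regulatory partner Abcc9 had a difference of 0.06 (10.8 ± 5.19 and 12 ± 5.99, adjusted p = 0.75). The related pore gene Kcnj11 did not pass on either tested probe set (-0.10 and -0.11). Kcnj2, the main strong inward rectifier of small arteries, had group means of 7.0 ± 3.55 and 5.43 ± 3.05 and was not tested.

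K2P channels comprised 11 genes and 16 probe sets. Of 9 probe sets tested in limma, 0 rose (0 also at an unadjusted p under 0.05), 2 fell and 7 did not pass, 22.2% changed. The share was 52.8% among all probe sets tested, and 29.3% (9.60% risen and 19.6% fallen) among those below 50 in both groups. All K2P probe sets but the brightest of Kcnk2 lay in that range. At an unadjusted p under 0.05 in limma, 26.6% of all probe sets tested were higher. The 9 are too few to read this as a property of the group. Of the 9 differences 8 were below 0, as were 55.4% of all those tested, bright ones included. By gene, with the brightest probe set, 6 of 7 were below 0. The median of the 9 was -0.26, beside -0.10 for all tested probe sets below 50 in both groups. After quantile normalization and median centring that of the 9 was -0.12 and -0.11. Kcnk2, a background channel known to be opened by membrane stretch and polyunsaturated fatty acids, read 216.3, 175.1 and 186.1 in static arrays and 14.4, 8.3 and 10.2 in sheared arrays. It had the largest fall of any potassium channel probe set tested, and the pairs were alike, at -2.93, -2.98 and -2.95. The mean went from 193 ± 21.3 to 11.0 ± 3.12 (SD, n = 3), a ratio of 17.6, and the fitted difference was -2.95 (95% interval -3.21 to -2.70, adjusted p = 2.0e-06). With the sheared signal near the floor, the size depended on the pseudocount, from -4.04 at 1 to -1.77 at 64. A second Kcnk2 probe set was dim (6.17 ± 0.404 in static and 2.87 ± 1.03 in sheared cells), did not overlap between the groups and was not tested.

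Kcnk12, a K2P subunit largely held inside the cell when expressed alone, read 35.9, 29.5 and 26.8 in static and 20.7, 16.7 and 6.3 in sheared arrays. The groups did not overlap, and it fell by 0.64 (adjusted p = 0.0066), a call lost without pair 3 (-0.49, adjusted p = 0.056). Kcnk6, just below the limit of 50, read 54.7, 44 and 42.6 in static and 33.0, 40.0 and 35.0 in sheared arrays. Its arrays did not overlap on either probe set, and neither passed (-0.28 and -0.22, adjusted p = 0.11 and 0.18). Kcnk3, an acid-sensitive background channel of pulmonary artery muscle, did not pass on 2 tested probe sets (-0.22 and -0.26).

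The 14 changes thus differed in how firmly they stood. Kcnk2, Kcne4, Kcnd1, Kcnmb4, Kcnq5 and Kcnn4, 6 in all, kept their direction and call in each of the 13 or 14 alternative settings that tested them. Among these settings was the looser threshold of 0.1, at which no call made at 0.05 can be lost. The other blocks, filters and eBayes settings changed the p-value and not the difference. The other 8 lost the call in at least 1 setting. Fewer fell without pair 2 (5) or pair 3 (4) than in the fit with all pairs (11), and 5 in place of 3 rose without pair 1; fits with 2 pairs have 1 residual degree of freedom. Of the 74 members left out of the test, none had a group mean above 8.87. Tested in limma without the filter, 2 of them fell and 0 rose at an adjusted p below 0.05, and 2 were higher at an unadjusted p under 0.05.

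Genes that work beside potassium channels were taken from a list of 31: channel partners, sodium pump subunits, chloride cotransporters, pacemaker channels, and regulators of channel turnover or transcription. Of these, 24 had a probe set, 21 were tested, 2 rose, 6 fell and 13 did not pass, 38.1% changed against 58.1% of all genes tested by their brightest probe set. Their median was -0.20, beside -0.05 for all genes. Atp1b1, a beta subunit of the sodium pump that brings potassium into the cell, read 586.8, 384.2 and 376.6 in static and 61.4, 52.1 and 58.3 in sheared arrays. No sheared array came near a static one, and it fell by 2.64 (adjusted p = 5.4e-06), with a second probe set at -2.20. Atp1b3, another beta subunit, went the other way, from 1262 ± 16.4 to 1672 ± 125 (SD, n = 3), and rose by 0.40 (adjusted p = 0.0018).

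Slc12a2, the sodium-potassium-chloride cotransporter, fell from 408 ± 104 to 129 ± 15.7 (SD, n = 3), a difference of -1.52 (adjusted p = 0.00025). Slc12a7, a potassium-chloride cotransporter, fell by 0.42 (adjusted p = 0.039), a call lost in 5 of 14 settings, among them without pair 1 (-0.25, adjusted p = 0.092), without pair 2, and with either of the other scalings. The ubiquitin ligases Nedd4 and Nedd4l, which take ion channels off the cell surface, both fell, by 0.98 and 0.51 (adjusted p = 0.00013 and 0.012); all 6 Nedd4 probe sets fell, whereas Nedd4l did not pass after median centring or without pair 3. Cacna1c, the pore of the L-type calcium channel, fell from 54.3 ± 7.05 to 27.6 ± 2.08 (SD, n = 3), by 0.68 (adjusted p = 0.0019), and its dimmer probe set did not pass (-0.35). The other riser, Rest, is named after its values were seen: it is a transcriptional repressor known to act on Kcnn4, and it went from 12.1 ± 2.89 to 27.6 ± 4.41 (SD, n = 3), a rise of 0.63 (adjusted p = 0.0031). Sgk1, a kinase that raises many ion channels at the surface, did not pass (0.63, adjusted p = 0.14), with pair 1 at -0.60 and the other pairs at 1.21 and 1.27. Wnk1, a kinase that regulates these cotransporters, had probe sets that disagreed, the brightest not passing at -0.32 and another risen by 1.23.

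**Figure D4:**
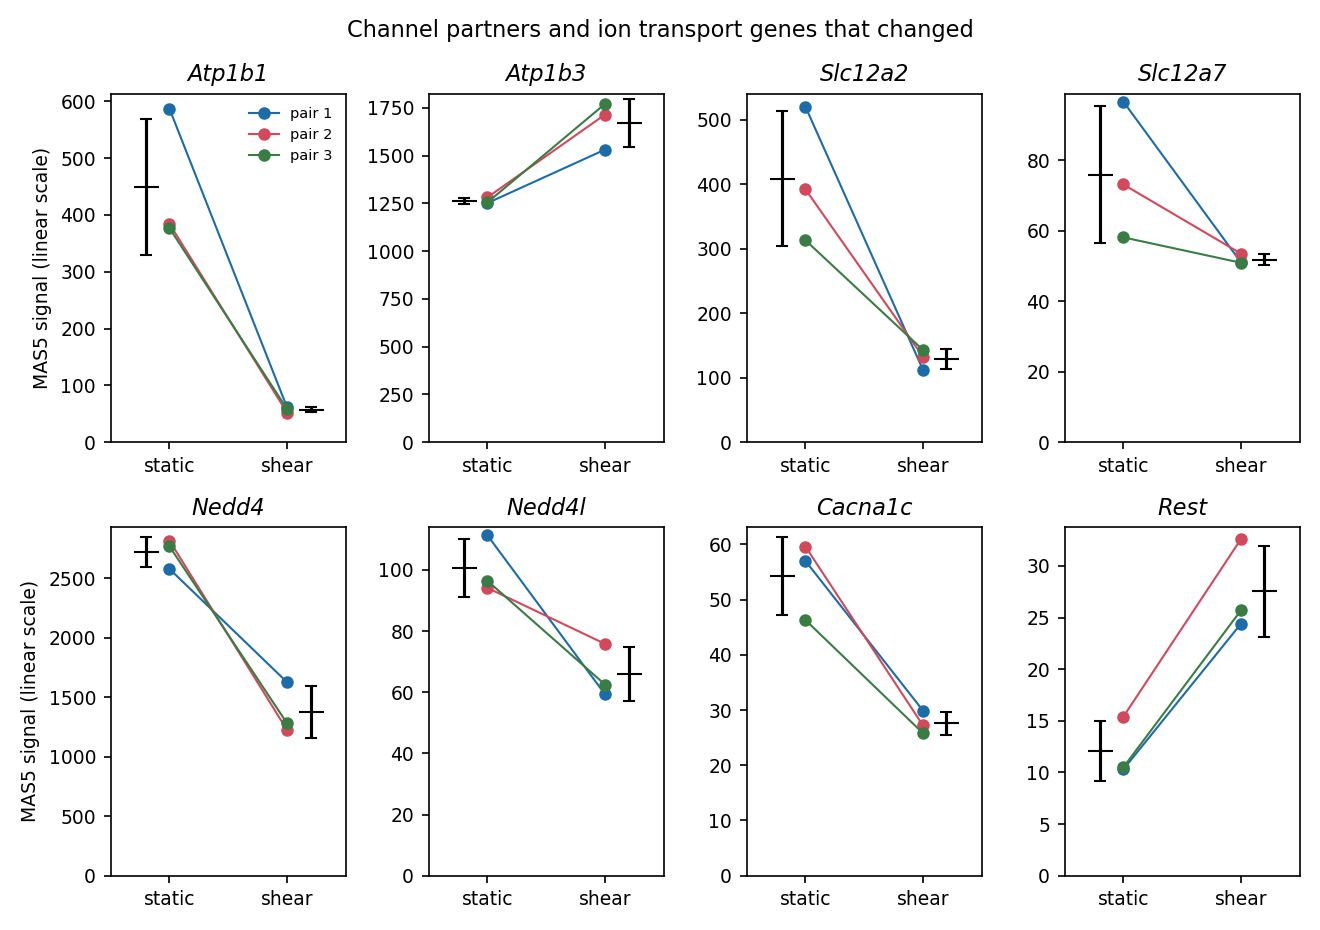
MAS5 signal on a linear scale in each array for the 8 genes of the partner list that passed at an adjusted p below 0.05, on the brightest probe set of each; lines join pairs, and black bars give the mean and SD of 3 arrays. Atp1b3 and Rest are higher under shear in every pair, and Atp1b1, Slc12a2, Slc12a7, Nedd4, Nedd4l and Cacna1c are lower in every pair.

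The cells carried smooth muscle markers: 7 of 8 had a mean of 50 or more, the exception being Des. Acta2, Cnn1, Smtn, Myh11 and Lmod1 fell, 5 in all, while Tagln, Myocd and Des did not pass. Of all genes with a mean of 50 or more, 34.4% fell. The summed signal of the 8 was 5066 to 5692 in static and 4037 to 4141 in sheared arrays. Acta2 went from 1811 ± 157 to 836 ± 89.1, and Tagln from 2684 ± 284 to 2815 ± 93.3 (SD, n = 3). Endothelial markers summed to 92.8 to 107 and 110 to 122, mostly from Erg (44.1 ± 6.19 and 40.6 ± 20.7, not passed) and Flt1 (27.8 ± 3.75 and 53.6 ± 11.1, risen), with Pecam1, Kdr, Vwf and Emcn at means below 5 in both groups. Leukocyte markers summed to 169 to 232 in static and 116 to 160 in sheared arrays, mostly from Cd14, which fell (182 ± 28.7 to 108 ± 22.6), while Cd68 rose (10.1 ± 4.67 to 25.8 ± 3.16) and Ptprc had means below 2. Fibroblast markers were abundant, with overlapping sums of 5299 to 7734 and 4314 to 7290; of 7, Dcn and Dpt rose, and Pdgfra, Twist2, Col14a1 and Scara5 fell by 2.25, 1.5, 1.35 and 1.18. Neuronal markers summed to 647 to 727 in static and 307 to 577 in sheared arrays, nearly all from Stmn2. Both Stmn2 and Syn1 (20.4 ± 1.89 to 10.4 ± 6.46) fell, while Snap25, Rbfox3 and Gad1 had group means of 0.93 to 6.13. Skeletal muscle markers summed to 116 to 235 and 66.9 to 152, mostly from Acta1, which fell (135 ± 68.8 to 76.4 ± 44.3). Heart muscle markers summed to 13.9 to 23.5 and 20.3 to 31.5, with Tnnt2 risen (5.17 ± 4.72 to 14.4 ± 3.58). The sums of smooth muscle, neuronal and leukocyte markers were lower under shear, and that of endothelial markers was higher. Those of fibroblast, skeletal muscle and heart muscle markers overlapped. Members of a list did not all move together: of 7 fibroblast markers 4 fell, 2 rose and Lum did not pass. Tagln did not pass and Cd68 rose, although the sums of their lists were lower. The part of these marker shifts in the potassium channel results, falls or rises, was not tested. In a culture, fewer cells of a type and less RNA per cell cannot be told apart. Median signal over all probe sets was 21.1 to 22.6 in static and 17.3 to 18.9 in sheared arrays, and the ratio of 3′ to 5′ signal of beta-actin was 0.25 ± 0.036 and 0.39 ± 0.028 on the log2 scale (SD, n = 3), while that of Gapdh was 0.17 ± 0.0097 and 0.16 ± 0.0062. The part of the lower median and the actin ratio in the results was not tested either.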

How the data were processed

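The deposited values are intensity, 1 linear signal per probe set and array, which the authors obtained with MAS5, per the submitters' processing notes. No version is named there, and detection calls were not used here. The trimmed mean, without 2% of values at either end, was 100.0 on all 6 arrays, which had thus been put on 1 scale. Precision is limited by there being 3 arrays in a group.

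Genes were named from the platform annotation; all 126 Kcn probe sets matched a RefSeq gene (GRCr8) by identifier with 0 symbols changed, and 22 of the 97 Kcn symbols in that table were not analysed here. The brightest probe set, by mean over 6 arrays, stood for a gene. To the signal 16 was added before log2 (exact zeros occur), and the lowest 30% of the 31042 probe sets (57 controls apart) were left out. Sheared and static arrays were compared in limma 3.58.1 (R 4.3.3) with lmFit, eBayes with an intensity trend and the pairing number as a fixed block, which the series design calls for. The two-sided p-values received the Benjamini-Hochberg adjustment over the 21729 probe sets, at a threshold of 0.05. As a check of the pairing, the correlation within pairs of deviations from the group means was 0.071, 0.065 and 0.063. The fit was tested on simulated arrays. These held no pair effect and no difference in scale between the groups, so they say nothing about the pairing or the scaling.

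The members, the channel groups, and the partner and marker lists were chosen with earlier results of these data known. Named were all genes with a mean of 50 or more in either group, the 6 dimmer changed members with the largest difference, and the partner genes with a mean of 50 or more that passed. The other changed members, Rest and channels known from arterial muscle were added after their values were seen. Alternatives were other scalings, pseudocounts, filters, blocks and eBayes settings, another threshold, each pair left out, means over probe sets, and other limits of signal. Figures were drawn with matplotlib 3.10.9.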

Additional observations from a re-analysis of the deposited data

How the results depend on the processing

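The counts of potassium channel probe sets that rose (3) and fell (11) moved as follows. Quantile normalization and median centring each gave 5 risen and 6 fallen. An adjusted p below 0.1 gave 5 risen and 13 fallen, and leaving out the lowest 50% of probe sets gave 2 and 6. A pseudocount of 1 gave 2 risen and 10 fallen, no filter gave 2 and 13, and no intensity trend gave 3 and 13. Leaving out 1 pair gave 2 to 5 risen and 4 to 11 fallen. Of the 5 genes with a mean of 50 or more, 2 rose in every setting run. The number that fell, 3, became 2 after quantile normalization or median centring and without pair 2 or pair 3. At a limit of 30 it became 6 and at a limit of 100 it became 1. Of the partner genes, 1 rose in place of 2 with the lowest 50% left out, and 3 rose without pair 1. The number of partner genes that fell, 6, became 4 with median centring, 7 without pair 1 and 8 at an adjusted p below 0.1. It was 5 with quantile normalization, without the filter, without pair 2 or pair 3, and by means over probe sets. Without the replicate block 3 rose and 11 fell, but not the same probe sets: Kcnj6 lost its call (adjusted p = 0.084) and a Kcnt1 probe set gained one (-0.36, limma adjusted p = 0.027). The dimmest Kcnq5 probe set, which did not pass, turned from -0.11 to 0.036 after median centring, the 1 reversal among named probe sets. Over the named probe sets and alternatives, 283 values kept direction and call, 36 lost the call and 6 gained it. These counts include the looser threshold of 0.1, at which no call could be lost. Low signal limits these data: 74 of 126 members were left out of the main test by the filter on signal. The cause of these shifts was not tested.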
